A study of Mus musculus with 29 samples.

Results

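Doc2b, a gene for a calcium sensor of vesicle exocytosis, was 1 of 24770 gene symbols in a table of RNA-seq counts from brown adipose tissue (BAT) and gastrocnemius skeletal muscle (SkM) of mice. It was selected on the measured fold changes under calorie restriction, which were high in both tissues. The 2 kinds of restriction contrast, CR against control in sedentary mice and CREX against EX in trained mice, are therefore given as a description without a test. The interaction of restriction with training and the differences between tissues are differences of these same contrasts, so for Doc2b they also carry no test. Tests were kept for training, as EX against control and CREX against CR, and for the level between the control groups of both tissues, although the libraries of these comparisons also entered the choice.

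Doc2b belongs to the Doc2 family of proteins with paired C2 domains, which bind calcium and membrane phospholipids. These proteins work beside the SNARE proteins, the syntaxin, SNAP and VAMP partners that pull a vesicle onto its target membrane, and beside Munc18 and Munc13 proteins, which prepare the SNAREs for fusion. In fat and muscle cells the vesicles of interest carry the insulin-responsive glucose transporter GLUT4 (gene Slc2a4), and DOC2B is known to promote insulin-stimulated GLUT4 delivery and insulin secretion.

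All mice were wild-type C57BL/6J males, 8 weeks old at the start, and were treated for 8 weeks. Control mice were sedentary and fed ad libitum, CR mice were sedentary and had their food lowered in steps to 70% of ad libitum intake, EX mice ran on a treadmill with free food, and CREX mice had both the restriction and the running. Tissue was taken after a fast of 6 h in every group and, in the EX and CREX groups, 24 h after the last run. There were 3 control, 4 CR, 4 EX and 4 CREX libraries of BAT and 4 control, 3 CR, 4 EX and 3 CREX libraries of SkM, 1 per mouse and tissue, so p-values measure the spread between mice of 1 cohort. Whether BAT and SkM libraries came from the same mice was not given in the labels. Tissue homogenates hold many cell types, and a change in the number of cells that express a gene cannot be told apart from a change in RNA per cell.

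The libraries held 21047242 to 24919377 counts each, so that 3 counts corresponded to 0.120 to 0.142 CPM (counts per 1000000 counts of the library). The summed level of 9 brown adipocyte markers was 11220 CPM or more in every BAT library and at most 216 CPM in SkM, where Ucp1 was at or under 3 counts in every library. The 10 skeletal muscle fibre genes summed to at least 123000 CPM in SkM. The same muscle genes ranged from 3.34 to 6879 CPM in BAT, and 6 slow muscle fibre genes were at 18.6 to 546 CPM in the SkM CREX group against 928 to 1674 CPM in the SkM control group. Both sets of values are set beside the Doc2b results that they touch.

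Doc2b lies on the minus strand of chromosome 11 from 75768966 to 75796049 (GRCm38, the same assembly as mm10), with 9 exons in the GENCODE annotation. A non-coding gene on the plus strand, Gm12339 (75794768 to 75825241), overlaps its 5′ end, and the exons of both share 241 bases, of which 85 are Doc2b coding sequence. Gm12339 had 0 counts in 14 of the 15 control and EX libraries and was above 0 in 11 of the 14 CR and CREX libraries, with at most 6.33 counts. In 5 libraries the count of Doc2b was not a whole number, and in all 5 the sum of Doc2b and Gm12339 was whole, within 0.015 counts. The counting command in the study's methods carries no strand option, and RSEM by default ignores strand, so reads in the overlap could belong to either gene. Gm12339 held at most 7.19% of the summed counts of the pair in any CR or CREX library.

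In BAT, Doc2b was close to the detection limit without restriction and was detected in every library with it. The 3 control libraries had 4, 7 and 1 counts, which was 0.175, 0.282 and 0.0413 CPM. The 4 CR libraries had 55.8, 85.8, 35 and 43 expected counts, or 2.43, 4.07, 1.44 and 1.85 CPM. Every CR library was thus above every control library, as for 16.6% of the genes tested, and the second CR library was the highest. The EX libraries had 2, 4, 6 and 7 counts (0.0924, 0.183, 0.243 and 0.306 CPM), within the range of the control group except for its highest library. The CREX libraries had 33, 27, 30 and 23 counts (1.32, 1.20, 1.24 and 0.908 CPM), all above every EX library, as for 8.86% of the genes tested, and all below every CR library.

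In SkM the same split was wider. The 4 control libraries had 6, 6, 9 and 7 counts, or 0.276, 0.279, 0.407 and 0.291 CPM. The 3 CR libraries had 187, 122 and 160 counts, or 8.20, 4.82 and 6.11 CPM. The highest control library was below the lowest CR library, as for 13.3% of the genes tested. The EX libraries had 2, 3, 7 and 3 counts (0.0905, 0.136, 0.316 and 0.140 CPM), and only the third reached the range of the control group. The CREX libraries had 81.7, 88 and 136 counts (3.41, 3.61 and 5.39 CPM), all above the EX libraries, as for 13.8% of the genes tested, and overlapping the CR group through the third library.

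**Figure D1:**
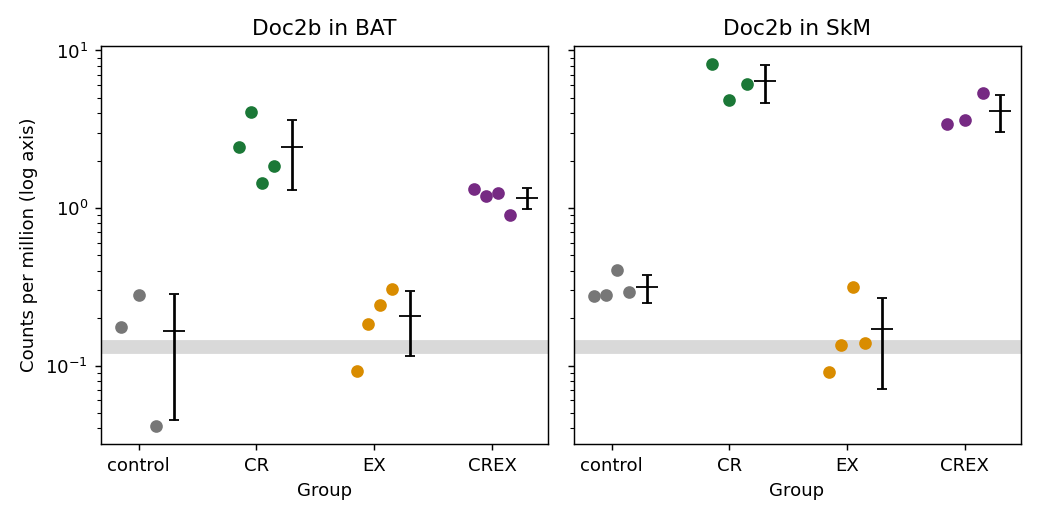
Doc2b in each library, in CPM on a log axis, by group in BAT (left) and SkM (right); each point is 1 mouse, the black bar is the group mean with its SD, and the grey band is the level of 3 counts (0.120 to 0.142 CPM). The CR and CREX libraries lie at 0.908 CPM or above in BAT and at 3.41 CPM or above in SkM, and no control or EX library exceeds 0.407 CPM.

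From the lowest to the highest, the group means were BAT control (0.166 ± 0.120 CPM, SD, n = 3), SkM EX (0.171 ± 0.0997, n = 4), BAT EX (0.206 ± 0.0911, n = 4), SkM control (0.313 ± 0.0628, n = 4), BAT CREX (1.17 ± 0.178, n = 4), BAT CR (2.45 ± 1.15, n = 4), SkM CREX (4.14 ± 1.09, n = 3) and SkM CR (6.38 ± 1.71, n = 3). The 4 groups with free food overlapped with their neighbours in this order. BAT CR and SkM CREX also overlapped, as did SkM CREX and SkM CR. The steps from SkM control to BAT CREX and from BAT CREX to BAT CR were the ones without overlap. Relative to the mean, the spread was 15.3% in BAT CREX, 47.2% in BAT CR and 72.6% in BAT control, where the counts were single digits. The CPM were scaled within each tissue, so the places of BAT and SkM groups relative to each other depend on the scaling. By library total, BAT control (0.1675 CPM) stood above SkM EX (0.162 CPM), and the other groups kept their order.

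For CR against control, the Doc2b log2 fold change was 3.83 (SE 0.55) in BAT and 4.33 (SE 0.26) in SkM. For CREX against EX it was 2.45 (SE 0.33) in BAT and 4.56 (SE 0.36) in SkM. From the summed counts alone, the ratio was 14.4-fold in BAT CR (220 against 12 counts, 95% interval 8.07 to 28.3), 5.57-fold in BAT CREX (113 against 19, 3.41 to 9.60), 20.1-fold in SkM CR (469 against 28, 13.8 to 30.7) and 24.3-fold in SkM CREX (306 against 15, 14.5 to 44.0). These are exact conditional intervals that cover counting error only, and the few counts in the control and EX groups set their width. Among the genes tested, ordered by log2 fold change from the highest, Doc2b was at place 4 of 13323 in BAT CR, 12 of 13251 in BAT CREX, 47 of 13173 in SkM CR and 5 of 13112 in SkM CREX. Doc2b was chosen on these fold changes, so the places and intervals describe it and do not test it. With the counts of Gm12339 added to those of Doc2b, the log2 ratio of the group means was 3.93 in BAT CR, 2.45 in BAT CREX, 4.38 in SkM CR and 4.67 in SkM CREX.

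**Figure D2:**
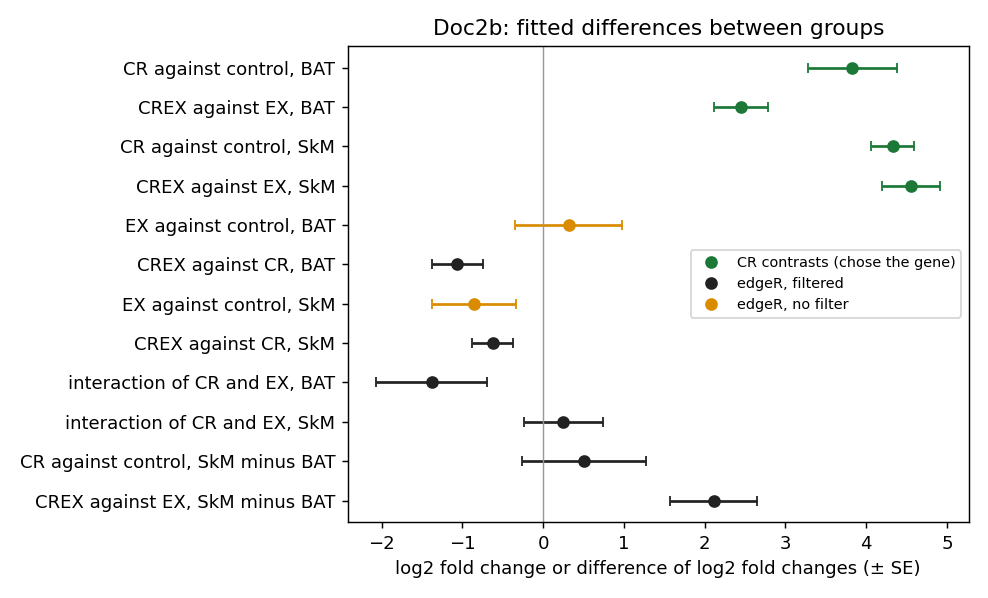
Fitted differences of Doc2b between groups, as log2 fold changes or differences of log2 fold changes with their SE. The 4 restriction contrasts (green) lie between 2.45 and 4.56, the training contrasts lie between -1.06 and 0.32, and the CREX against EX contrast differs between SkM and BAT by 2.11.

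Training without restriction was the first of the tested comparisons. Doc2b fell under the filter on low counts when EX and control were fitted alone, so the test was made on all genes without the filter. The log2 fold change was 0.32 (SE 0.66, edgeR adjusted p = 0.918) in BAT and -0.86 (SE 0.52, edgeR adjusted p = 0.810) in SkM. With 19 against 12 counts in BAT and 15 against 28 in SkM, the ratios of 1.25 (95% interval 0.577 to 2.83) and 0.545 (0.271 to 1.06) show how little these counts could resolve. An exact two-sided permutation test on log2 CPM gave p = 0.514 in BAT (4 against 3) and p = 0.114 in SkM (4 against 4), where the smallest p possible was 0.0286. A difference between EX and control was not detectable at this depth in either tissue. Few genes were called at all. Without the filter, edgeR called 7 of 21917 genes in BAT and 31 of 21427 in SkM. In the filtered fits, which did not hold Doc2b, edgeR called 0.00% in BAT (0 of 13407) and 0.0775% in SkM (10 of 12907). In the filtered BAT fit 972 genes had an unadjusted p under 0.05, and DESeq2 called 39 in BAT and 52 in SkM.

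Training on top of restriction was compared next, between the CREX and CR groups. In BAT, Doc2b had a log2 fold change of -1.06 (SE 0.31), which did not pass the test over all genes (unadjusted p = 0.00581, edgeR adjusted p = 0.473). The 4 CREX libraries were all below the 4 CR libraries, and 3.06% of all genes tested in this comparison were likewise lower without overlap. Of the 13112 genes, 0.00763% were called. The exact permutation test gave p = 0.0286, the smallest it can give with 4 against 4. Without the second CR library, the highest in Doc2b, the log2 fold change was -0.70. The CR libraries of this comparison also entered the contrast that chose the gene. The muscle genes went the other way, with a median log2 fold change of 2.16, and 0 of the 10 were called. Their sum was 21.7, 57.4, 1598 and 824 CPM in the CR libraries in replicate order and 1148, 1480, 6879 and 2335 CPM in the CREX libraries. The 2 CR libraries with the least muscle signal were those with the most Doc2b. With the muscle marker score as a covariate the log2 fold change was -0.44 (SE 0.35, edgeR adjusted p = 0.9996).

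In SkM, CREX against CR gave a Doc2b log2 fold change of -0.63 (SE 0.26, unadjusted p = 0.0395, edgeR adjusted p = 0.999), and -0.41 without the first CR library. The libraries overlapped, and the exact permutation test gave p = 0.200, with 0.100 as the smallest p for 3 against 3. The slow fibre genes differed between the same libraries, at 1497 to 1771 CPM in the CR group and 18.6 to 546 CPM in the CREX group, and with the slow fibre score as a covariate the log2 fold change was -1.24 (SE 0.46, edgeR adjusted p = 0.960). In both tissues the value was lower with training, and in neither did it pass the test. No gene was called in this SkM comparison by edgeR (477 had an unadjusted p under 0.05, and DESeq2 called 17). Without the first SkM CREX library, edgeR called 99 genes, and Doc2b was not called (log2 fold change -0.51, edgeR adjusted p = 0.466).

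The interaction is the difference between the restriction effect with training and that without it. For Doc2b it was -1.38 on the log2 scale (SE 0.69) in BAT and 0.25 (SE 0.49) in SkM. The BAT value ran from -1.99 without the second control library to -0.93 without the third, and the SkM value was smaller than its error. Both are descriptions, since they are built from the contrasts that chose the gene.

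The size of the restriction effect was set side by side between the tissues in the same way. For CR against control, the SkM effect exceeded the BAT effect by 0.51 (SE 0.77), a difference smaller than its error. For CREX against EX, the SkM effect exceeded the BAT effect by 2.11 (SE 0.54), and it remained larger without any 1 of the 15 libraries (1.87 to 2.55). The mean of the EX groups was 0.171 CPM in SkM and 0.206 CPM in BAT, and that of the CREX groups was 4.14 CPM in SkM and 1.17 CPM in BAT. In the control groups, the level of Doc2b was 1.18 higher in SkM than in BAT on the log2 scale (SE 0.56, edgeR without the filter, adjusted p = 0.0782), and each group had 9 counts or fewer in every library.

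Muscle genes were measured in every BAT library. The sum of the 10 muscle genes in a BAT library, as a share of their mean in the SkM libraries of the same treatment, was 0.0110% to 0.847% in the CR group and 0.616% to 3.62% in the CREX group. Carried over at that share, SkM would have brought at most 0.0569 CPM of Doc2b to a CR library and 0.159 CPM to a CREX library. This was at most 4.00% of the Doc2b measured in any CR library and 13.0% in any CREX library, the latter in the third replicate. This takes the SkM profile of the same treatment as fixed, and the part of muscle RNA in the BAT result was not tested.

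**Figure D3:**
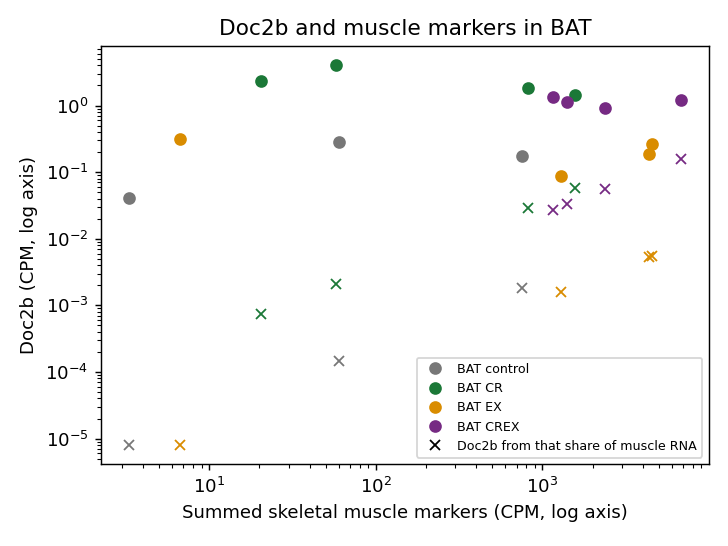
Doc2b in each BAT library (points) and the Doc2b that its share of muscle RNA would bring (crosses), in CPM on a log axis, against the summed CPM of 10 skeletal muscle genes on a log axis. Every point lies above its cross, and the nearest pair is the third CREX library, where the cross stands at 13.0% of the point.

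Markers of other cell types were measured in the same libraries. Among all genes tested, 6.86% were called lower in BAT CR and 5.32% in SkM CR, and 3.87% were called higher in BAT CR. The 9 neuron markers summed to between 1.03 and 4.37 CPM in every library, and in BAT 7 of them, Tubb3, Nefl, Nefm, Elavl4, Th, Dbh and Prph, were at or under 3 counts in every library. In BAT the sum was 2.19 to 2.66 CPM in the control group and 1.89 to 2.84 CPM in the CR group, and in SkM it was 3.12 to 4.37 and 2.61 to 3.02 CPM, where the 1 neuron marker tested was called lower (log2 fold change -0.62). The sum of 7 Schwann cell markers was 76.3 to 105 CPM in control BAT and 42.9 to 57.8 CPM in CR BAT, where 1 of the 6 tested was called lower, and 43.6 to 187 CPM in control SkM and 51.9 to 232 CPM in CR SkM, where 0 of the 7 tested were called (median log2 fold change 0.10).

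Of 7 endothelial markers, 1 was called lower in BAT CR, 0 in BAT CREX, and 3 in SkM CR and in SkM CREX. The shares of all genes called lower were 6.86%, 2.63%, 5.32% and 5.17% in that order. Of 4 fibroblast markers, 2 were called lower in BAT CR, SkM CR and SkM CREX, and 0 in BAT CREX. The 1 mesothelial marker tested, Lrrn4, was called higher in BAT CR (log2 fold change 1.38), and Msln, Upk3b, Wt1 and Krt19 were at or under 3 counts in every library of that group. Among 7 macrophage markers, 1 was called lower in BAT CR and 0 in BAT CREX, SkM CR and SkM CREX. Among 4 smooth muscle markers, 1 was called lower in each of BAT CR, BAT CREX and SkM CR, and 0 in SkM CREX. Among 9 brown adipocyte markers, 1 was called higher and 2 lower in BAT CR, and 1 higher and 1 lower in BAT CREX. The part of these cell types in the Doc2b values was not tested.

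Among the other Doc2 genes, Doc2g shared the rise under restriction in BAT but not in SkM, and Doc2a had too few counts to be tested. Doc2a, the paralogue best known from nerve terminals, had at most 2.47 counts in any library of either tissue. Doc2g, a family member with less conserved calcium-binding residues, rose under restriction in BAT. Its BAT levels were 1.49, 1.25 and 1.61 CPM in the control group, 4.38, 5.25, 3.25 and 3.31 CPM in the CR group, 1.48, 1.28, 1.38 and 1.58 CPM in the EX group and 5.07, 1.86, 3.34 and 3.55 CPM in the CREX group. All CR and CREX libraries were above all control and EX libraries of BAT. In BAT, 16.6% of the genes tested were likewise higher without overlap in CR against control, and 8.86% in CREX against EX.

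The log2 fold change of Doc2g in BAT was 1.48 in the CR group (SE 0.22, edgeR adjusted p = 0.00144) and 1.27 in the CREX group (SE 0.27, edgeR adjusted p = 0.0225). In SkM it was -0.02 (SE 0.20, edgeR adjusted p = 0.968) and -0.11 (SE 0.22, edgeR adjusted p = 0.763), with levels of 1.81 to 2.65 CPM in the control group and 1.87 to 2.19 CPM in the CR group. The SkM effect minus the BAT effect was -1.501 for CR (SE 0.29, edgeR adjusted p = 0.00572) and -1.39 for CREX (SE 0.36, edgeR adjusted p = 0.0380), and at an adjusted p under 0.05 the tissues differed for 7.58% of 14369 and 5.58% of 14410 genes. Per kilobase of exon, Doc2b averaged 0.0380 CPM and Doc2g 0.477 CPM in control BAT, and 0.0718 against 0.696 CPM in control SkM. Under CR the level per kilobase of Doc2b remained below Doc2g in BAT (0.561 against 1.33 CPM) and exceeded it in SkM (1.46 against 0.685 CPM).

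The exocytosis machinery around Doc2b was examined through 6 lists with 98 genes in the table other than Doc2b. Of the 76 or 77 of them tested, 5 were called in BAT CR (3 higher, 2 lower), 1 in BAT CREX (higher), 8 in SkM CR (6 higher, 2 lower) and 8 in SkM CREX (5 higher, 3 lower) (a call was an adjusted p under 0.05 with more than a 1.5-fold change). These were shares of 6.58%, 1.32%, 10.4% and 10.5%, while 10.7%, 4.48%, 9.60% and 8.87% of all genes tested were called in the same comparisons. The median log2 fold change of the listed genes was 0.03, 0.03, 0.00 and 0.04, beside 0.00 for all genes in each comparison. Of all genes tested, 3.87% were called higher and 6.86% lower in BAT CR, 1.86% and 2.63% in BAT CREX, 4.27% and 5.32% in SkM CR, and 3.70% and 5.17% in SkM CREX. The shares of the lists differed little from those of all genes in SkM and were smaller in BAT, and neither difference was tested.

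None of the 17 SNARE proteins tested was called in any of the 4 comparisons, and neither was any of the 9 exocyst subunits, which tether vesicles to the plasma membrane. This held with edgeR and with DESeq2, and at an unadjusted p under 0.05 there were 13 of 68 edgeR results for the SNARE proteins and 5 of 36 for the exocyst. Stx4a, the syntaxin that receives GLUT4 vesicles, had log2 fold changes of -0.18 (SE 0.08) in BAT CR, -0.28 (SE 0.07) in BAT CREX, -0.08 (SE 0.11) in SkM CR and -0.06 (SE 0.10) in SkM CREX. Its edgeR adjusted p in BAT CREX was 0.0422, and it missed a call there only by the fold change. Its partner Snap23 lay between -0.15 and 0.06 and the vesicle SNARE Vamp2 between -0.05 and 0.15 over the same comparisons. Vamp2 was at 55.1 ± 1.76 CPM (SD, n = 3) in control BAT and 54.6 ± 1.99 CPM (SD, n = 4) in CR BAT.

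Slc2a4 was at 293 ± 9.19 CPM (SD, n = 3) in control BAT and 432 ± 31.6 CPM (SD, n = 4) in CR BAT (log2 fold change 0.56, SE 0.07, edgeR adjusted p = 7.20e-04), under the fold change of 1.5 needed for a call. In CREX BAT the log2 fold change was 0.24 (SE 0.14, edgeR adjusted p = 0.305). In SkM the values were 0.00 (SE 0.11) for CR and -0.05 (SE 0.10) for CREX, with group means between 535 and 566 CPM.

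The regulators that act on SNAREs gave a few calls. These were 1 of 13 in BAT CR (7.69%, beside 10.7% of all genes) and 0 of 13 in BAT CREX (beside 4.48%). In SkM they were 1 of 14 with CR (7.14%, beside 9.60%) and 3 of 13 with CREX (23.1%, beside 8.87%). Stxbp2, a Munc18 protein, rose in BAT CR (log2 fold change 0.70, SE 0.09, edgeR adjusted p = 7.88e-04). Stxbp4, a syntaxin-4 binding protein also known as Synip, rose in SkM with CR (1.61, SE 0.15, edgeR adjusted p = 2.47e-04) and CREX (1.51, SE 0.11, edgeR adjusted p = 5.13e-04), from 12.5 ± 2.74 CPM (SD, n = 4) in the control group to 38.1 ± 1.03 CPM (SD, n = 3) in the CR group. In BAT the Stxbp4 log2 fold change was -0.02 (SE 0.17) with CR and -0.14 (SE 0.18) with CREX. In SkM CREX, Napa, which helps to take SNARE complexes apart, rose by 0.61 (SE 0.17, edgeR adjusted p = 0.0400), and Unc13c, a Munc13 gene at 0.234 ± 0.302 CPM (SD, n = 3) in that group, was lower (log2 fold change -2.24, SE 0.63, edgeR adjusted p = 0.0461). Stxbp3, the Munc18 protein paired with syntaxin-4, and Unc13b were called in none of the 4 comparisons, with log2 fold changes between -0.20 and 0.23.

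Of the other C2-domain genes, 11 were tested in each comparison. In BAT, 2 were called with CR (18.2%, beside 10.7% of all genes) and 0 with CREX (beside 4.48%). In SkM, 3 were called with CR (27.3%, beside 9.60%) and 2 with CREX (18.2%, beside 8.87%). Sytl1, a synaptotagmin-like Rab27 effector, rose in BAT CR (0.98, SE 0.15, edgeR adjusted p = 0.00155), where Sytl4 fell (-0.72, SE 0.19, edgeR adjusted p = 0.0222). In SkM, Syt12 (1.68, SE 0.27) and Sytl2 (0.93, SE 0.20) rose with CR, Syt9 fell with CR (-2.09, SE 0.62) and with CREX (-1.97, SE 0.37), and Sytl4 fell with CREX (-1.77, SE 0.43). The lower values rested on few counts. Syt9 had 1 to 8 counts in the SkM CR libraries and 4 to 6 in the SkM CREX libraries, and Sytl4 had 3 to 6 in the latter. Syt7, a calcium sensor with high affinity for calcium, had log2 fold changes between -0.24 and 0.43 and was not called.

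Of 25 genes of GLUT4 traffic, edgeR called 1 in BAT CR (4.00%, beside 10.7% of all genes), 0 in BAT CREX (0.00%, beside 4.48%), 4 in SkM CR (16.0%, beside 9.60%) and 3 in SkM CREX (12%, beside 8.87%), and in BAT CREX 9 had an unadjusted p under 0.05 and DESeq2 called 0. Tbc1d1, a Rab GTPase-activating protein that restrains GLUT4 vesicles, fell in BAT CR (-0.75, SE 0.13, edgeR adjusted p = 0.00315) and rose in SkM CR (0.71, SE 0.17, edgeR adjusted p = 0.0187). Sort1, which sorts proteins into GLUT4 vesicles, rose in SkM with CR (0.71, SE 0.17) and CREX (1.13, SE 0.18), as did the vesicle motor Myo5a (0.64, SE 0.14, and 1.37, SE 0.22). The insulin receptor substrate Irs1 fell in SkM CR (-0.62, SE 0.17, edgeR adjusted p = 0.0381), and Tbc1d4, also known as AS160, rose in SkM CREX (0.85, SE 0.19, edgeR adjusted p = 0.0227).

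**Figure D4:**
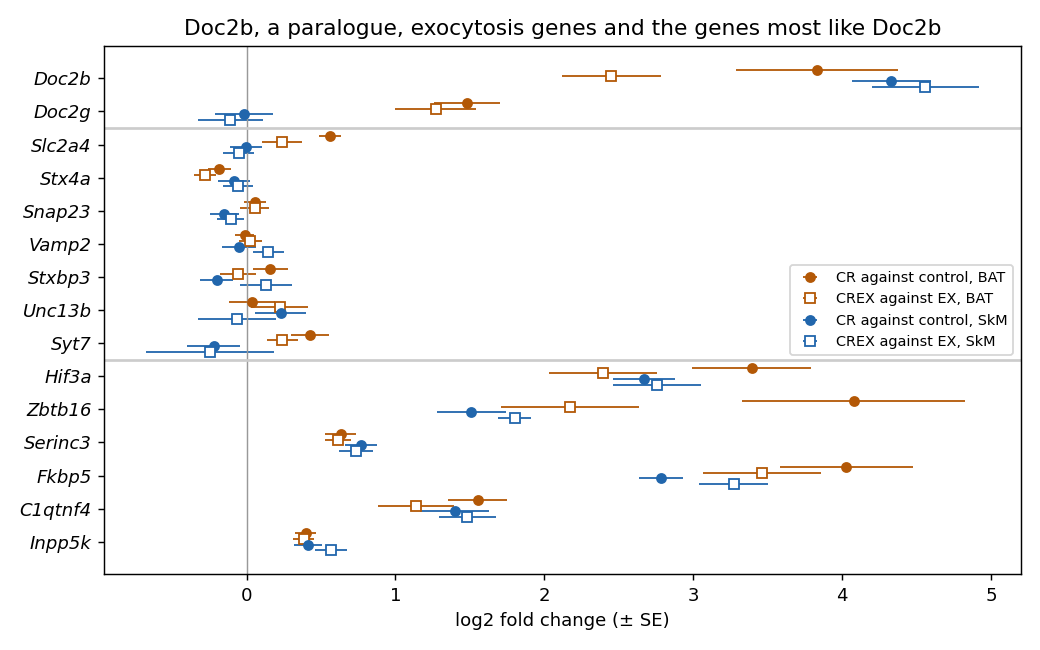
Log2 fold changes with SE for Doc2b and Doc2g (top), genes of the exocytosis machinery and Slc2a4 (middle) and the 6 genes most like Doc2b (bottom); filled circles are CR against control and open squares CREX against EX, in BAT (brown) and SkM (blue). The Doc2b values of 2.45 to 4.56 lie far from those of its SNARE partners Stx4a, Snap23 and Vamp2, which lie between -0.28 and 0.15.

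The genes around Doc2b were compared with it in the same contrasts. The nearest 3 genes tested on the side of lower coordinates were Ywhae, Crk and Myo1c, and those on the other side were Rph3al, Vps53 and Glod4, with gaps of 3121 bases to Ywhae and 34950 bases to Rph3al. None of the 6 was called in any of the 4 comparisons by edgeR or DESeq2 (5 of 24 edgeR results had an unadjusted p under 0.05), and their largest log2 fold change was 0.49 (SE 0.09), for Vps53 in SkM CREX. Vps53 had an edgeR adjusted p of 0.0409 in SkM CR and 0.0122 in SkM CREX, and it missed a call there only by the fold change. Myo1c, a myosin motor that takes part in GLUT4 delivery, had log2 fold changes between -0.17 and 0.18, and Rph3al, a Rab effector of exocytosis also called Noc2, between 0.01 and 0.32. Within 500 kb of Doc2b, 22 genes were tested, of which 4 were called in BAT CR (18.2%, beside 10.7% of all genes), 0 in BAT CREX (0.00%, beside 4.48%), 3 in SkM CR (13.6%, beside 9.60%) and 2 in SkM CREX (9.09%, beside 8.87%).

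**Figure D5:**
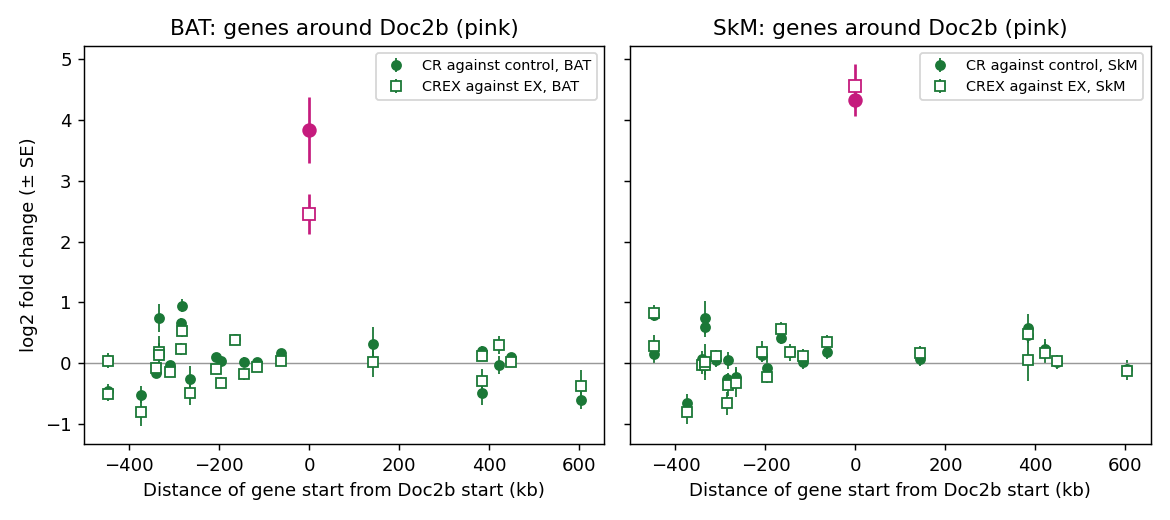
Log2 fold changes with SE of the 22 genes tested within 500 kb of Doc2b, against the distance of each gene's start from the Doc2b start in kb, in BAT (left) and SkM (right); filled circles are CR against control, open squares CREX against EX, and Doc2b is drawn in pink. All neighbours lie between -0.81 and 0.95, and Doc2b lies at 2.45 or above.

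Doc2b was 1 of 22 genes called higher in all 4 restriction comparisons, which was 0.183% of the 12007 genes tested in all of them, and this count is part of how it was chosen. The comparisons share no libraries between tissues or between the sedentary and the trained pair. Ordered by their smallest log2 fold change, the first 9 were Fkbp5 (2.78), Doc2b (2.45), Hif3a (2.39), BB123696 (2.25), LOC108167736 (1.62), Fam107a (1.61), Zbtb16 (1.51), Gm27252 (1.49) and Tsc22d3 (1.43). Fkbp5 encodes a chaperone of the glucocorticoid receptor, Hif3a a member of the hypoxia-inducible factor family, Zbtb16 the transcription factor PLZF, and Tsc22d3 the glucocorticoid-induced leucine zipper protein. Fkbp5, Zbtb16 and Tsc22d3 are known as glucocorticoid-responsive genes, and Foxo3, Sesn1 and Glul, which also stood among the 22, are known to respond to fasting in muscle.

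The training contrasts of these genes are given as a description, since the CR libraries entered the choice of all 22. For CREX against CR, the other 21 genes had log2 fold changes between -0.78 and 0.32 in BAT (median -0.07, 15 below 0) and between -0.26 and 1.31 in SkM (median 0.08, 8 below 0). The Doc2b values of -1.06 and -0.63 were the lowest of the 22 in BAT and in SkM. The CREX libraries entered the choice as well, so no test of this place or of the other 21 genes is given. Doc2b itself did not pass the test over all genes in either tissue, as given above.

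The 6 genes whose log2 CPM followed Doc2b most closely, by the smaller of the Pearson correlations over the 15 BAT and the 14 SkM libraries among 12670 genes, were Hif3a (r = 0.954 in BAT and 0.932 in SkM), Zbtb16 (0.923 and 0.929), Serinc3 (0.922 and 0.939), Fkbp5 (0.916 and 0.957), C1qtnf4 (0.913 and 0.905) and Inpp5k (0.887 and 0.908). The libraries fall into restricted and unrestricted groups, and these values mainly rank genes by that split. After each group's mean was removed, r was 0.733 in BAT and -0.398 in SkM for Hif3a, and 0.250 and -0.113 for Fkbp5. With Spearman correlations, 0 of the 6 were among the first 6, which were then Prpsap1, Gucd1, Sdf4, Pan3, Oscp1 and Trp53inp1.

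Hif3a had the highest Pearson value of the 6, and its place by Spearman was 360.5. It was at 0.155 ± 0.0947 CPM (SD, n = 3) in control BAT and 1.66 ± 0.441 CPM (SD, n = 4) in CR BAT, and at 0.815 ± 0.168 CPM (SD, n = 4) in control SkM and 5.20 ± 0.815 CPM (SD, n = 3) in CR SkM. Its log2 fold changes were 3.39 (SE 0.40) and 2.39 (SE 0.36) in BAT and 2.67 (SE 0.21) and 2.76 (SE 0.30) in SkM, for CR and CREX in that order. Inpp5k, a phosphoinositide phosphatase known to dampen insulin signalling, lies 120095 bases from Doc2b on the same chromosome. Its log2 fold changes were small, between 0.38 and 0.57 in BAT CR, BAT CREX, SkM CR and SkM CREX, and it missed the fold change of 1.5 in each. Since Inpp5k was picked by its correlation with Doc2b over these same libraries, no test of it is given.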

How the data were processed

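RNA-seq of 15 BAT and 14 SkM libraries was analysed. Per the labels, reads were paired-end and were sequenced on a BGIseq500. The paper's methods state that the authors trimmed reads with trim-galore, aligned them to mm10 by STAR and counted them by RSEM. The submitters' processing notes name STAR 2.7.10a and RSEM 1.2.28. The annotation and the strandedness of the libraries were not given in the sources used here, and the RSEM command in the methods carries no strand option. The deposited values are expected counts per gene symbol, not normalized, and were rounded to whole counts for the tests.

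Groups came from the sample titles. Each pair of groups was fitted with edgeR 4.0.16 (R 4.3.3): filterByExpr, TMM scaling, a robust quasi-likelihood F-test and Benjamini-Hochberg adjustment over all genes tested. The SE is the log2 fold change divided by the square root of F. A call needed an adjusted p under 0.05 and, between 2 groups, a fold change above 1.5. Interactions and differences between tissues were fitted over the 4 or more groups concerned, with BAT and SkM libraries taken as independent. No p is given for these terms of Doc2b, since they are built from the contrasts that chose it. CPM are TMM-scaled within a tissue, except in the muscle share, which used library totals. Correlations used log2 CPM with a prior count of 2. Exact permutation tests (scipy 1.17.1) were two-sided. Ranges of 3 counts and exact 95% intervals cover counting error only. Gene positions and exon lengths came from GENCODE (GRCm38). On simulated CR against control data of BAT with 13134 genes, edgeR called 81 of 99 genes changed 2-fold and 95 of 100 changed 4-fold. For CREX against CR it called 73 of 100 changed 2-fold in BAT (12978 genes) and 52 of 100 in SkM (12883 genes). Unchanged genes called by edgeR numbered 12, 10 and 10 in the same order. The changed genes were drawn from all genes that passed the filter, so the rates are not those at the low counts of Doc2b.

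Doc2b, the gene lists and the tests were chosen with earlier results of these data known. The genes named were Doc2b and its paralogues, the nearest 3 tested genes on each side, Slc2a4 and 6 exocytosis genes, the called genes of each list, the first 8 genes other than Doc2b called higher in all 4 restriction comparisons and the 6 genes most like Doc2b. Gm12339, the fasting genes among the 22 and the genes first by Spearman were named after their values were seen. Of the symbols, 27 had been turned into dates and 2 were duplicates, and none of these is named. The alternatives were DESeq2 1.42.0, RLE scaling, no filter, a minimum of 10 counts in every library, a fit over all groups of a tissue, a replicate block, leaving out each library, and muscle or slow fibre scores as covariates. Libraries with the same number did not deviate together in every pair, so the numbers were not taken to pair mice.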

Additional observations from a re-analysis of the deposited data

Results flagged for a closer look

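The restriction effect on Doc2g differed between the tissues (edgeR, a test of the difference between SkM and BAT). The SkM effect minus the BAT effect was -1.501 for CR and -1.39 for CREX on the log2 scale.

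Within groups of 4 libraries, 1 library stood apart from the other 3 in 4 of the 40 sets of values examined for Doc2b, Doc2g and the 6 genes most like Doc2b, and chance gives about 1 in 20. Doc2b was at 0.407 CPM in the third SkM control library, which rests on 9 counts against 6 to 7 in the others. Hif3a was at 0.0924 CPM in the first BAT EX library, Fkbp5 at 18.1 CPM in the first SkM EX library and Inpp5k at 29.6 CPM in the first SkM control library.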

How the results depend on the processing

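Doc2b was higher under restriction in all 4 restriction comparisons with every alternative that held it. The alternative with a minimum count in every library did not hold Doc2b in these comparisons, since its control and EX counts were too low. The log2 fold change ran from 3.83 to 4.01 in BAT CR, 2.45 to 2.57 in BAT CREX, 4.28 to 4.45 in SkM CR and 4.32 to 4.67 in SkM CREX. Leaving out 1 library gave 3.38 to 4.45, 2.23 to 2.69, 4.09 to 4.49 and 4.32 to 5.03 in the same order, with 4.45 without the second BAT control library and 5.03 without the third SkM EX library. The sum with Gm12339, the permutation tests and the fit of all 4 groups without the filter were chosen after seeing the data.

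The SkM minus BAT difference for CREX against EX was 2.06 with the replicate block and 1.87 to 2.55 without 1 library. That for CR against control was -0.14 to 0.96 without 1 library, and it turned negative without the second BAT control library. The BAT interaction was -1.99 to -0.93 without 1 library. The SkM interaction was -0.083 with the slow fibre covariate and -0.0018 to 0.72 without 1 library, turning negative without the third SkM CREX library and reaching 0.72 without the third SkM EX library. CREX against CR was -1.25 to -0.70 in BAT and -0.86 to -0.41 in SkM without 1 library. The replicate block changed no call of Doc2b for CREX against CR, and for EX against control no fit with the block held Doc2b. No cause of these changes was tested. For EX against control, the 1 filtered fit that held Doc2b was that over all groups of the tissue, with 0.32 (adjusted p = 0.923) in BAT and -0.86 (adjusted p = 0.999) in SkM, and the SkM against BAT control level had no filtered fit.

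Counts of all genes called moved as follows over the fits other than leaving out a library: 929 (replicate block) to 1563 around 1430 in BAT CR, 465 to 880 around 594 in BAT CREX, 1090 to 1495 around 1264 in SkM CR, and 61 (slow fibre covariate) to 1610 around 1163 in SkM CREX. For training they were 0 to 39 in BAT EX against control, 0 to 51 in BAT CREX against CR, 0 to 52 in SkM EX against control and 0 to 17 in SkM CREX against CR. Without 1 library the SkM CREX count ran from 343 to 2570, and that of SkM CREX against CR from 0 to 99. Called genes of the exocytosis lists numbered 4 to 6, 0 to 4, 4 to 8 and 1 to 12 in BAT CR, BAT CREX, SkM CR and SkM CREX over all alternatives. Counts of 1 to 9 in the control and EX groups limit what can be said of Doc2b there.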
